A study of Taeniopygia guttata with 23 samples.

Results

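Of 25502 merged RNA polymerase II (Pol II) regions in the auditory forebrain of male zebra finches, 2272 were called in the library from posthatch day 32 (P32) and in none of the 4 libraries from posthatch day 67 (P67). They were chosen by their Pol II islands alone, by merging overlapping or touching Pol II islands of all 5 libraries and keeping each merged region that held an island of P32 and no island of P67. They made up 24.6% of the 9219 Pol II regions called in P32 and 8.91% of all merged Pol II regions, and both shares follow from the rule. An island is a stretch of the genome in which immunoprecipitated reads exceed a set background. The absence of a P67 island at these regions therefore means that no enrichment passed the caller there, and the number of P67 reads below that limit was not analysed here.

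Pol II transcribes protein-coding genes, and its large subunit is phosphorylated on a repeated tail as it initiates and elongates. Islands can thus mark promoters, gene bodies or both, depending on the form that the antibody binds. H3K4me3 is a histone mark of active and poised promoters, H3K27me3 is laid down by Polycomb complexes over repressed developmental genes, and H3K9me3 marks heterochromatin and repeats. The auditory forebrain of a songbird processes heard song, and juvenile males memorise the song of an adult tutor during a sensitive period that includes day 32.

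P32 males had stayed in their home flight aviaries. The P67 birds had lived from day 21 either with 1 adult male and 1 adult female (Tutored) or with 2 adult females (Isolate). Each of Pol II, H3K4me3, H3K27me3 and H3K9me3 was measured by chromatin immunoprecipitation and sequencing in 1 P32, 2 Tutored and 2 Isolate libraries, which gave 20 libraries, and 3 input samples were not analysed here. The labels do not say whether replicates came from separate birds, so the spread between libraries may be technical, and the series' design text gives the older birds an age that differs from the labels by a few days. The Pol II antibody was ab5095, sold against the phosphorylated, elongating form, in P32 and in replicate 1 of both P67 groups, and the labels give no catalogue number for replicate 2, whose islands were also deposited in another format. Age cannot be told apart from housing, since P32 birds alone came from the aviaries, nor from the single P32 preparation.

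The P32 Pol II library held the fewest reads in islands. It had 1579718 reads in 10996 islands, against 3551511 reads in 18311 islands in Tutored replicate 1, 1991518 in 8589 in Tutored replicate 2, 3780427 in 19656 in Isolate replicate 1 and 3264120 in 15198 in Isolate replicate 2. Among islands of 2 to 4 kb, the least dense 5% lay under 22.1 reads per kb in P32, under 23.1 and 23.2 in replicate 1 of Tutored and Isolate, and under 28.3 and 29.2 in replicate 2. These are raw reads per kb, not scaled to the reads of each library. A region with a given number of reads per kb could thus be called in one library and missed in another. When only the 8589 densest Pol II islands of each library were used, the rule gave 2595 regions, of which 1240 overlapped the 2272. The part of density in the choice of regions was not tested further. No gene annotation of the files' coordinates was used here, so regions are named by chromosome and position in the files' own build, whose name no source used here gives.

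The regions called in P32 alone were shorter and less dense in Pol II than the regions that all 5 libraries shared. Each was a single P32 island. Their median length was 3000 bp (interquartile range 2000 to 4200, full range 400 to 19800), and the 5041 P32 islands inside regions shared by all 5 libraries had a median of 4600 bp. A median of 74 P32 reads fell on each region (interquartile range 56 to 100, full range 25 to 444), against 144 reads on the shared islands. Per length, this was 25.2 reads per kb (interquartile range 23.1 to 28.8) against 31.5 in the shared islands. The distributions overlapped: 337 regions, or 14.8%, reached at least the median density of the shared islands. Together the P32-alone regions covered 7.65 Mb, which was 14.7% of the bases and 12.1% of the reads in P32 Pol II islands. These values describe the selection and were not tested.

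**Figure D1:**
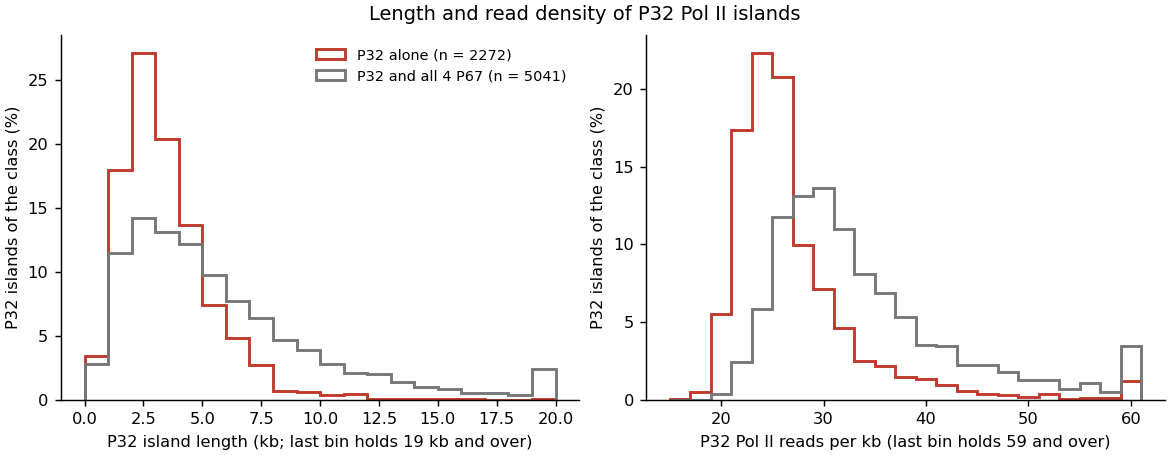
Length in kb (left) and Pol II reads per kb (right) of P32 islands, as the percentage of islands in each class, for the 2272 regions called in P32 alone (red) and the 5041 P32 islands in regions called in P32 and all 4 P67 libraries (grey). The P32-alone islands peak at shorter lengths and lower densities, and both distributions overlap.

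The longest region ran over 19.8 kb at chr4:59005601-59025400 with 408 P32 reads, or 20.6 per kb, and the next over 16 kb at chr1A:60311001-60327000 with 418 reads. The most reads, 444, lay on chr4:56311601-56326800 over 15.2 kb, the third longest. These were followed in length by chr3:89345601-89360000, with 314 reads over 14.4 kb, and chrZ:58906601-58920400, with 294 reads over 13.8 kb. The region chrZ:62601201-62614600 held 339 reads over 13.4 kb. Of these 6 long regions, 4 had no island of any histone mark in any library. The other two overlapped an H3K4me3 island in Isolate replicate 2 alone, with 54 reads at chr4:56311601-56326800 and 81 at chr3:89345601-89360000.

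The densest regions of at least 1 kb were short. The first was chr3:53138201-53139400, with 66 reads over 1.2 kb or 55 per kb, and the second chr5:45486201-45487600, with 54.3 per kb over 1.4 kb. The next 3 were 1 kb long: chrZ:39529401-39530400 at 51 reads per kb, chr3:400801-401800 at 49 and chr1A:37481401-37482400 at 47. None of these 5 overlapped an island of any histone mark in any library.

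The distance to the nearest P67 Pol II island had a median of 8000 bp (interquartile range 3000 to 20600, full range 200 to 557400). It was at most 5 kb for 845 regions, or 37.2%, and more than 50 kb for 194, or 8.54%. The regions nearest to a P67 island, at 200 bp each, included chr1:50746401-50747400 with 35 P32 reads and chr13:8199401-8201800 with 75. The farthest were chr5:48318001-48320400, at 557400 bp with 61 reads, chr2:28085801-28088400, at 493200 bp with 63, and chr1:105372801-105373400, at 413800 bp with 36. Just outside the rule were 780 P32 regions that exactly 1 P67 library also called. That library was Tutored replicate 1 for 395 of them, Tutored replicate 2 for 40, Isolate replicate 1 for 270 and Isolate replicate 2 for 75. Those with the fewest P67 reads were chrZ:6744001-6746600, with 75 reads in P32 and 23 in Isolate replicate 2, and chrZ:65544201-65546400, with 49 in P32 and 24 in Isolate replicate 1.

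Pol II islands were less frequent at 5 kb than at 20 kb from the region centres in P32 and in each of the 4 P67 libraries. In P67 they were more frequent in replicate 1 than in replicate 2 at both distances. At 20 kb to either side, islands of P32 covered 15.2% of positions, against 14.4% in Tutored replicate 1, 3.41% in Tutored replicate 2, 11.3% in Isolate replicate 1 and 4.67% in Isolate replicate 2. At 5 kb the P32 value was 12.2%, and the P67 values in the same order were 8.63%, 1.91%, 6.43% and 2.49%. At the centre the rule itself puts P32 at 100% and P67 at 0. The rule also keeps P67 islands off the whole length of each region, so lower P67 cover near the centre is partly built in. How much of the difference between 5 kb and 20 kb comes from the rule was not tested.

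**Figure D2:**
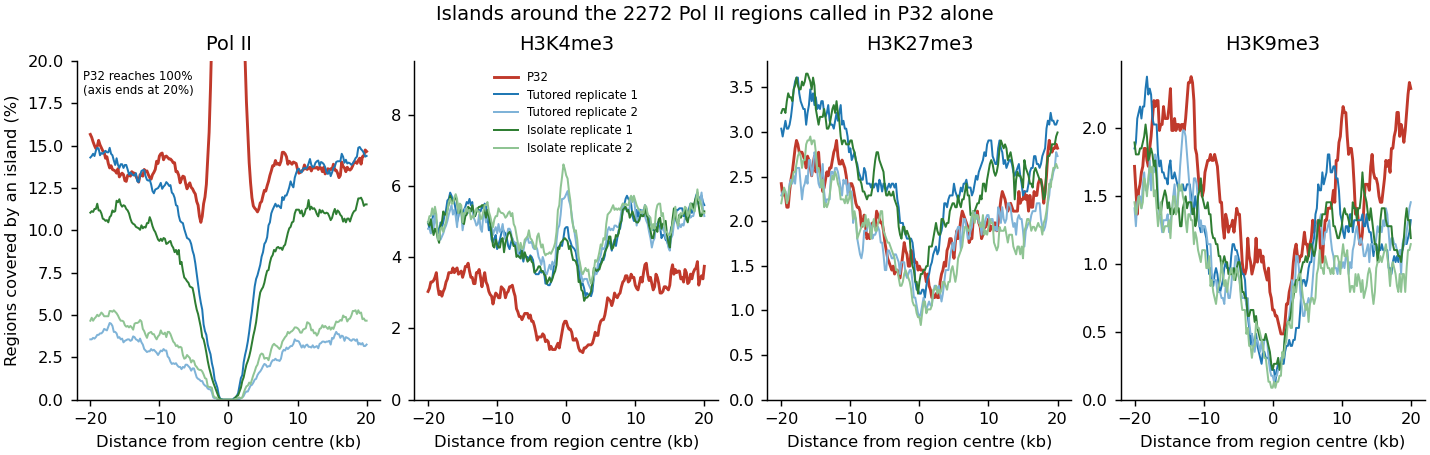
Percentage of the 2272 P32-alone Pol II regions covered by an island at each distance (kb) from the region centre, for Pol II and 3 histone marks, with P32 in red, Tutored in blue and Isolate in green. H3K4me3 cover is lower in P32 than in the 4 P67 libraries at the centre (2.20% against 4.49% to 6.29%) and at 20 kb, while H3K9me3 at the centre is higher in P32 (0.660% against 0.0880% to 0.220%).

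The nearest other P32 Pol II region of any class was a median of 11600 bp away, against 7400 bp for the regions shared by all 5 libraries. It was often also P32-alone. For 990 of them, or 43.6%, the nearest other P32 Pol II region was also called in P32 alone, while this held for 13.3% of the regions shared by all 5 libraries. For comparison, the P32-alone regions were 24.6% of all P32 Pol II regions, 30.7% of those on autosomes of at least 50 Mb and 34.1% of those on the Z. The part of chromosome in the 43.6% was not tested. When regions at most 10 kb apart were joined, 580 of them, or 25.5%, fell in 245 runs of 2 or more, and 18 runs held 4 or more. A run of 7 at chr2:93289401-93338800 put 28.8 kb of P32-alone Pol II into 49.4 kb and overlapped no histone mark island in any library. Another run of 7, at chrZ:61811601-61846400, put 25.8 kb into 34.8 kb, with 5000 bp of H3K4me3 island in P67 libraries and 0 in P32. Whether the regions of a run lie in 1 gene was not tested.

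Most of the regions lay on large chromosomes, whereas shared Pol II was dense on small ones. Bird genomes combine a few large chromosomes with many small, gene-rich ones, and male birds carry a pair of Z chromosomes. The 6 autosomes of at least 50 Mb held 1491 of the regions, the Z held 225, 8 chromosomes of middle size held 401, and 20 chromosomes under 20 Mb held 155. As a share of the P32 Pol II regions on the same chromosomes, this was 30.7% on large autosomes, 34.1% on the Z, 20.7% on middle and 8.79% on small chromosomes. Per Mb, P32-alone regions numbered 2.51, 3.09, 1.86 and 1.11 in that order of classes, and regions in all 5 libraries numbered 2.62, 2.54, 4.01 and 7.52. Small chromosomes thus held 6.82% of the P32-alone regions and 28.7% of the regions in all 5 libraries.

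Regions called in a single P67 library give a measure of how usual this is. Small chromosomes held 18.0% of the regions called in Tutored replicate 1 alone, 14.1% for Tutored replicate 2, 26.5% for Isolate replicate 1 and 24.5% for Isolate replicate 2, each above the 6.82% of P32. With 1 P32 library, this difference has no replicate at day 32. Along the chromosomes of the large class, the P32-alone share of P32 Pol II regions differed. It was 34.0% on chromosome 3, 32.5% on chromosome 1, 31.1% on chromosome 2, 29.3% on chromosome 1A, 27.2% on chromosome 4 and 25.9% on chromosome 5. None of the 24 P32 Pol II regions on chromosome 25 was P32-alone, and on chromosome 23 it was 1 of 86.

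**Figure D3:**
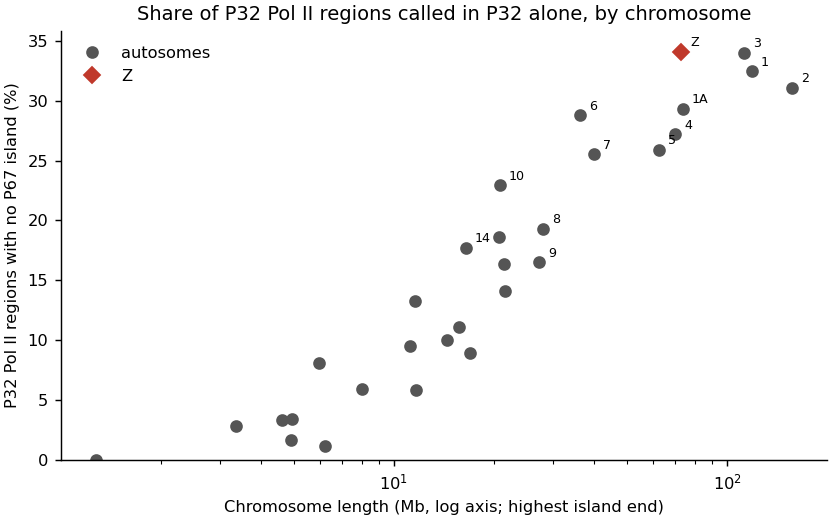
Share (%) of P32 Pol II regions that no P67 library called, by chromosome, against chromosome length in Mb (log axis, taken as the highest island end), for autosomes (circles) and the Z (diamond). The share is higher on longer chromosomes, from under 10% on most of the shortest to above 25% on the longest.

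Being called in a single library was itself common. Of the Pol II regions called in each library, 24.6% were alone in P32, 12.05% in Tutored replicate 1, 8.45% in Tutored replicate 2, 16.3% in Isolate replicate 1 and 19.3% in Isolate replicate 2. The P32-alone set thus had the highest share of the 5. P32 had no other Pol II library of its age that could share its regions, while each P67 library did. The part of this in its higher share was not tested. The median length of the P32-alone regions, 3000 bp, was above the 2400, 1200, 2000 and 1200 bp of the sets alone in Tutored replicates 1 and 2 and Isolate replicates 1 and 2. The mean density of island reads differed between libraries, so densities are set only within a library: the P32-alone regions stood at 0.881 of the median density of all P32 islands, and the other four sets at 0.809, 0.911, 0.849 and 0.920 of theirs.

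Histone marks, which the rule did not use, were less frequent at the regions than at Pol II regions shared by all 5 libraries, at both ages. The share of the genome that islands of each mark cover was not set beside these values. No island of H3K4me3, H3K27me3 or H3K9me3 in any of the 15 histone libraries overlapped 1934 of the 2272, or 85.1%, by 1 bp or more. The same held for 24.8% of the P32 regions that all 4 P67 libraries shared, and for 74.7%, 54.5% and 28.0% of those shared with 1, 2 and 3 P67 libraries. These merged regions were longer, with medians of 10600 bp in the first class and 4800, 6000 and 6200 bp in the others, so they had more length to overlap a mark. Among P32 islands of 2 to under 4 kb, P32 H3K4me3 overlapped 3.61% of the P32-alone ones and 48.5% of those in regions shared by all 5 libraries. Among the other 338 P32-alone regions, H3K4me3 alone was present at 223, or 9.82% of all 2272, H3K27me3 alone at 43 and H3K9me3 alone at 35. More than 1 mark was found at the remaining 37, with all 3 at 7 of them. The nearest H3K4me3 island of any library was a median of 22800 bp away, against 0 for the shared regions, of which more than 50% overlapped one. These unmarked regions were as long as the full set, with a median of 3000 bp.

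H3K4me3 was found at fewer of the regions at day 32 than at day 67, and by the rule Pol II was called there at day 32 alone. A P32 H3K4me3 island overlapped 88 regions, or 3.87%. At day 67 the share was 6.78% in Tutored replicate 1, 8.76% in Tutored replicate 2, 6.51% in Isolate replicate 1 and 9.46% in Isolate replicate 2. P32 lay below all 4 P67 libraries, whose mean was 7.88% ± 1.46 (SD, n = 4). By bases, H3K4me3 covered 1.70% of the regions' length in P32 and 4.65% ± 0.792 in P67 (SD, n = 4). At the longer merged Pol II regions shared by all 5 libraries, the share was 60.0% in P32 and 61.4% ± 0.591 in P67 (SD, n = 4). Counted per P32 island inside them, it was 47.3% in P32 and 48.9% ± 0.940 in P67 (SD, n = 4). P32 was also below each P67 library at regions shared with fewer of them. There the share was 12.3% in P32 and 16.1% ± 1.16 in P67 at regions called in 1 P67 library, 32.4% in P32 and 36.2% ± 1.00 in P67 at those in 2, and 61.9% in P32 and 63.9% ± 0.603 in P67 at those in 3 (SD, n = 4). In percentage points, the difference of P32 from the P67 mean was -4.01 at the P32-alone regions, -3.78, -3.88 and -1.98 at these 3 classes in that order, and -1.36 at the regions in all 5, so a lower share in P32 was not limited to the P32-alone regions. All H3K4me3 islands together covered 35.1 Mb in P32, against 38.9 to 49.1 Mb at day 67, and the part of this in the lower share was not tested. The exact permutation test of 1 library against 4 cannot go below p = 0.2, so these shares are given without a test. In bulk tissue a mark carried by fewer cells and less of it per cell cannot be told apart.

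The same order held within classes of length and density. Among the 486 regions under 2 kb, H3K4me3 was present at 4.73% in P32 and 8.23% ± 1.55 in P67 (SD, n = 4). For the 1080 regions of 2 to under 4 kb the values were 3.61% in P32 and 7.66% ± 1.01 in P67, and for the 706 of 4 kb or more they were 3.68% in P32 and 7.97% ± 2.18 in P67. In the third of regions with the lowest Pol II density, 3.17% had H3K4me3 in P32 and 6.30% ± 1.33 in P67. In the third with the highest density, it was 5.02% in P32 and 9.78% ± 1.61 in P67. P32 was below each of the 4 P67 libraries in every one of these classes.

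**Figure D4:**
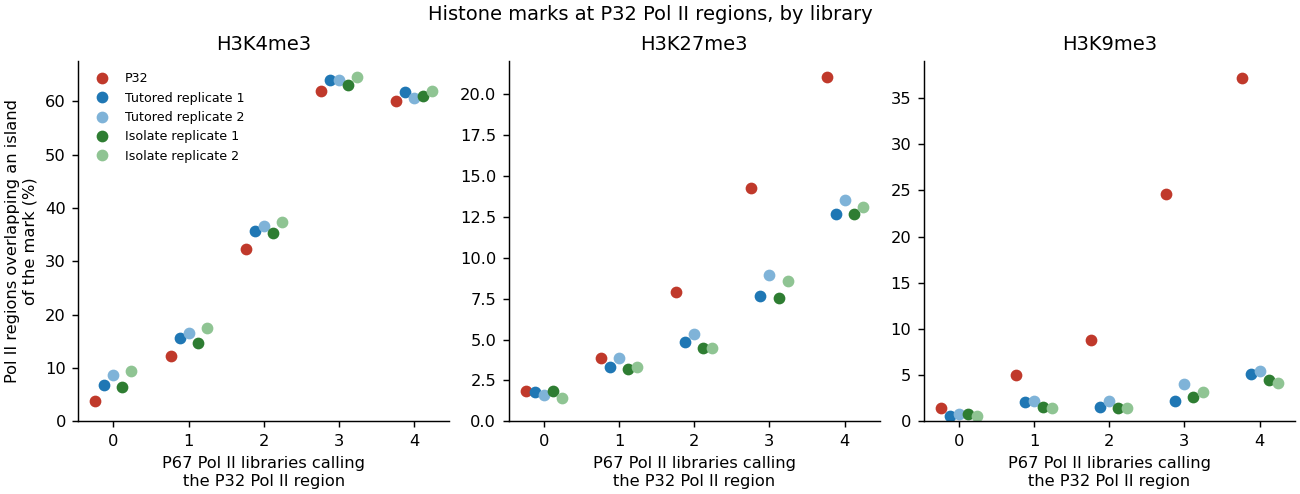
Percentage of P32 Pol II regions overlapping an island of H3K4me3, H3K27me3 or H3K9me3 (1 panel each), by the number of P67 libraries that also called the Pol II region, with 1 point per library. At 0 P67 libraries, the P32-alone regions, H3K4me3 reaches 3.87% in P32, against 6.51% to 9.46% at day 67. All 3 marks are less frequent than at merged regions shared with 4, which are longer (median 10600 bp against 3000 bp).

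Counted region by region, 80 of the 2272 carried H3K4me3 in all 5 libraries, 45 in all 4 P67 libraries and not in P32, and 112 in 1 to 3 P67 libraries and not in P32. In P32 and in no P67 library, H3K4me3 was found at 2, and in P32 with 1 to 3 P67 libraries at 6. The H3K4me3 islands were also merged over their 5 libraries, as for Pol II. Of the 243 merged H3K4me3 regions at P32-alone Pol II, 2 (0.823%) were called in P32 and in no P67 library, against 4.19% of all 20953 H3K4me3 regions. Called in all 4 P67 libraries and not in P32 were 28 (11.5%), against 3.60% of all. The merged H3K4me3 regions at P32-alone Pol II were longer, with a median of 3600 bp against 2200 bp of all. The part of length in these shares was not tested.

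Read counts in H3K4me3 islands were also lower in P32 at most of the regions compared. They were compared at merged H3K4me3 regions called in all 5 libraries, of which 129 overlapped a P32-alone Pol II region. The overlap was that of the merged region, so wider P67 islands alone could bring it to the Pol II region. P32 H3K4me3 islands themselves overlapped 88 of the Pol II regions, and 80 carried the mark in all 5 libraries. Regions wider in P67 could thus be favoured. The count of each library was that of its own islands in the merged region, so reads beside a narrower island were left out. The median H3K4me3 island was 1600 bp in P32, 2200 bp in replicate 1 of both P67 groups and 1600 bp in replicate 2. The part of either in the lower P32 counts was not tested. P32 had fewer H3K4me3 reads, as TMM-scaled CPM over the regions tested, than the lowest of the 4 P67 libraries at 106 of the 129, or 82.2%, against 33.4% of all 13513 H3K4me3 regions tested. It had more than the highest at 9, against 35.5% of all. The median log2 ratio of P32 to P67 was -1.10 (interquartile range -1.97 to -0.50), against 0.01 over all H3K4me3 regions and 0.03 over the 2713 at Pol II regions shared by all 5 libraries, of which 33.6% lay below the P67 range. The share below the P67 range at P32-alone Pol II was 80.0% for H3K4me3 regions under 2 kb, 79.3% for 2 to under 4 kb, 82.1% for 4 to under 8 kb and 87.0% for 8 kb or more. Over all H3K4me3 regions of those lengths it was 24.0%, 31.7%, 39.5% and 49.5%.

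None of the 129 passed edgeR's quasi-likelihood test with Benjamini-Hochberg adjustment over all 13513 regions (0 of 13513 called, 0%), and the smallest adjusted p among them was 0.0710. At an unadjusted p under 0.05 there were 82 of the 129, 80 lower and 2 higher in P32, against 23.1% of all regions, 12.7% lower and 10.4% higher. DESeq2 called 61 of the 129, all lower in P32, against 6.93% of all regions called lower. The edgeR count also changed when any 1 of the P67 libraries was left out, to a similar number whichever library it was. It was 55 without Tutored replicate 1, 53 without Tutored replicate 2, 56 without Isolate replicate 1 and 52 without Isolate replicate 2, all lower in P32, against 5.20%, 4.23%, 5.82% and 4.37% of all regions called lower in the same fits. With 1 library at day 32, each of these fits borrows its spread from the P67 libraries. Leaving out 1 P67 library also leaves 1 in its group, so the spread then comes from the other P67 group alone.

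**Figure D5:**
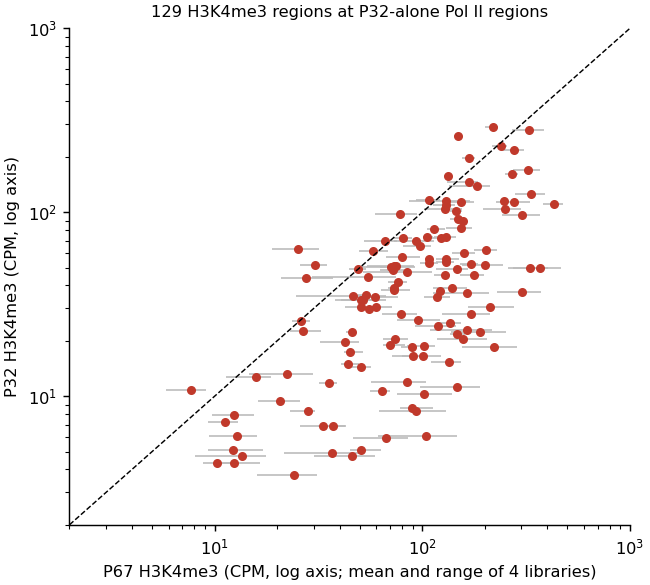
H3K4me3 CPM in P32 (vertical, log axis) against P67 (horizontal, log axis; point at the mean of 4 libraries, bar from lowest to highest) at the 129 H3K4me3 regions called in all 5 libraries that overlap a P32-alone Pol II region, with equality dashed. Most points lie under the line: 106 are below the P67 range and 9 above it. Each value counts the reads in that library's own islands.

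The 3 H3K4me3 regions with the smallest p were picked for it, and their differences were larger than the median log2 ratio of -1.10 over the 129. The smallest p belonged to the H3K4me3 region chr6:5778401-5786200, which had 111 reads in P32, against 555 and 1549 in Tutored replicates 1 and 2 and 586 and 1763 in Isolate replicates 1 and 2. That was 21.8 CPM in P32 and 146 ± 10.9 CPM in P67 (SD, n = 4), a log2 ratio of -2.74 (SE 0.235, edgeR adjusted p = 0.0710). At chr14:4236801-4246600 there were 78 reads in P32, against 453 and 1478 in Tutored and 546 and 1679 in Isolate, with a log2 ratio of -3.13 (SE 0.294). At chr2:108161601-108168800 there were 44 reads in P32, against 323 and 937 in Tutored and 322 and 1225 in Isolate, with a log2 ratio of -3.37 (SE 0.381). The edgeR adjusted p of both was also 0.0710, so all 3 lay below every P67 library without passing the test.

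The region on chromosome 2 lies inside a Pol II region of 9 kb with 202 P32 Pol II reads, chr2:108160001-108169000, one of the 5 with most Pol II reads among the 80 that carried H3K4me3 in all libraries. The first of these 5 was chr3:93850801-93862000, with 303 P32 Pol II reads. H3K4me3 islands there held 57 reads in P32, against 398 and 1887 in Tutored replicates 1 and 2 and 497 and 2072 in Isolate replicates 1 and 2. At chr10:7133401-7143600, with 253 Pol II reads, the H3K4me3 reads were 40 in P32, against 45 and 141 in Tutored and 40 and 355 in Isolate. At chr5:51802001-51809000, with 201 Pol II reads, they were 25 in P32, against 148 and 527 in Tutored and 89 and 433 in Isolate. At chr4:27469401-27477400, with 195 Pol II reads, they were 233 in P32, against 714 and 1957 in Tutored and 628 and 2157 in Isolate. These are raw counts, and the H3K4me3 libraries held 5180553 reads in islands in P32, against 4291767 and 10840161 in Tutored and 4286003 and 11303863 in Isolate. Replicate 1 of both groups held fewer reads in islands than P32, and its counts were equal to or above those of P32 at these 5 regions. Its H3K4me3 islands were also longer, with a median of 2200 bp against 1600 bp in P32. The part of depth or island length in these counts was not tested.

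The exceptions were few. Of the 9 H3K4me3 regions above the P67 range, the one with the smallest p was chr1:70206001-70212600, where P32 had 1319 reads, against 600 and 1494 in Tutored and 640 and 1626 in Isolate. This was 259.5 CPM in P32 and 148 ± 5.47 CPM in P67 (SD, n = 4), a log2 ratio of 0.81 (SE 0.156, edgeR adjusted p = 0.0829), and it was picked for its value. The pair of Pol II regions with H3K4me3 in P32 and in no P67 library held few reads. They were chr1:27315001-27318000, with 87 Pol II and 19 H3K4me3 reads in P32, and chr4A:4923401-4925200, with 47 Pol II and 36 H3K4me3 reads in P32. The region on 4A also overlapped an H3K9me3 island with 46 reads in P32 and an H3K27me3 island with 237 reads in Isolate replicate 1.

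H3K27me3 was rare at the regions, and P32 lay at the upper end of the P67 range. It overlapped 42 of the 2272, or 1.85%, in P32, against 1.80%, 1.58%, 1.85% and 1.41% in Tutored replicates 1 and 2 and Isolate replicates 1 and 2. P32 equalled Isolate replicate 1, and the P67 mean was 1.66% ± 0.204 (SD, n = 4). At merged Pol II regions in all 5 libraries it was 21.04% in P32 and 12.98% ± 0.411 in P67. Counted per P32 island inside them, it was 13.4% in P32 and 6.91% ± 0.514 in P67 (SD, n = 4). Of 76 merged H3K27me3 regions at P32-alone Pol II, 10 (13.2%) were called in P32 and in no P67 library, against 5.72% of all 31910, and 2 (2.63%) in all 4 P67 libraries and not in P32, against 7.23%. Their median length was 8600 bp, against 4200 bp of all, and the part of length was not tested. In read counts, 42 were tested and edgeR called 0, as it did of all 11659 (0%). At an unadjusted p under 0.05 there were 6, against 10.1% of all, and DESeq2 called 2, both lower in P32, against 2.23%. P32 was below the P67 range at 16 of the 42 and above it at 10, against 27.1% and 29.1% of all, with a median log2 ratio of -0.07. Of the 404 H3K27me3 regions at Pol II regions shared by all 5 libraries, 4.21% lay below the P67 range, with a median log2 ratio of 0.48.

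The lowest p among them lay on the Z. The H3K27me3 region chrZ:19374001-19385400 had 66 reads in P32, against 227 and 193 in Tutored and 250 and 321 in Isolate, a log2 ratio of -1.69 (SE 0.450, edgeR adjusted p = 0.439). The next were chrZ:65430801-65438200, with 98 reads in P32, against 233 and 302 in Tutored and 209 and 270 in Isolate, and chr1A:25170401-25185600, with 133 in P32, against 559 and 368 in Tutored and 454 and 469 in Isolate. Of the 16 Pol II regions with H3K27me3 in all 5 libraries, 9 had H3K4me3 in none. The one with most Pol II reads, 106, was chrZ:68187801-68192400, where H3K27me3 islands held 337 reads in P32, against 471 and 235 in Tutored and 495 and 279 in Isolate. It was followed by chr11:10432601-10434400, with 75 Pol II reads. There H3K27me3 islands held 1420 reads in P32, against 542 and 1504 in Tutored and 94 and 1581 in Isolate, and H3K9me3 islands held 513 reads in P32 alone. At chr6:18690201-18693000, with 65 Pol II reads, H3K27me3 islands held 192 reads in P32, against 132 and 192 in Tutored and 115 and 196 in Isolate, and an H3K9me3 island with 95 reads was called in P32 alone.

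H3K9me3 was the rarest of the 3 marks at the regions and was called at more of them at day 32. It overlapped 32 of the 2272, or 1.41%, in P32, against 0.572%, 0.836%, 0.748% and 0.528% in Tutored replicates 1 and 2 and Isolate replicates 1 and 2. P32 lay above all 4, whose mean was 0.671% ± 0.145 (SD, n = 4). This was not limited to these regions: at Pol II regions in all 5 libraries H3K9me3 was found at 37.2% in P32 and 4.81% ± 0.565 in P67 (SD, n = 4), and at 1122 of the 3651 (30.7%) it was called in P32 alone. Counted per P32 island inside those shared regions, the share was 26.7% in P32 and 2.17% ± 0.362 in P67 (SD, n = 4). At the P32-alone Pol II regions, H3K9me3 was called in P32 alone at 25. Among regions under 2 kb the share was 3.29% in P32, above all 4 P67 libraries, and 1.39% ± 0.541 in P67. Among those of 4 kb or more it was 0.425% in P32, inside the P67 range, and 0.531% ± 0.292 in P67 (SD, n = 4). Of 62 merged H3K9me3 regions there, 22 (35.5%) were called in P32 and in no P67 library, against 21.9% of all 39912, and 3 (4.84%) in all 4 P67 libraries and not in P32, against 8.84%. Their median length was 2600 bp, against 3000 bp of all.

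Few H3K9me3 regions at P32-alone Pol II could be compared by reads. Of 7 called in all 5 libraries, edgeR and DESeq2 each called 0, against 0.0946% and 10.5% of all 5286, and 1 had an unadjusted p under 0.05, against 24.7% of all. That was chr1:25380601-25406000, with 1047 reads in P32, against 463 and 863 in Tutored and 545 and 672 in Isolate, or 998 CPM in P32 and 595 ± 63.1 CPM in P67 (SD, n = 4; log2 ratio 0.75, SE 0.220, edgeR adjusted p = 0.113). The next by p were chr3:64004801-64009200, with 54 reads in P32, against 73 and 87 in Tutored and 58 and 104 in Isolate, and chr9:50601-94400, with 828 in P32, against 789 and 1156 in Tutored and 944 and 1037 in Isolate. Both had a lower CPM in P32 than in each P67 library, with log2 ratios of -0.56 (SE 0.448) and -0.24 (SE 0.197). In all, P32 was below the P67 range at 3 of the 7 and above it at 1, against 33.5% and 33.2% of all. Of the 111 H3K9me3 regions at Pol II regions shared by all 5 libraries, 9.01% lay below the P67 range, with a median log2 ratio of 0.75.

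The marks at the P32-alone regions were also set beside those at the regions called in each single P67 library. H3K4me3 of any library overlapped 10.8% of the regions alone in P32, 14.7% of those alone in Tutored replicate 1, 6.62% for Tutored replicate 2, 40.2% for Isolate replicate 1 and 29.3% for Isolate replicate 2. For H3K27me3 the shares were 3.35% at the P32-alone regions and 13.03%, 28.2%, 24.0% and 49.7% at the P67 sets in the same order. For H3K9me3 they were 2.68% at the P32-alone regions and 12.8%, 24.96%, 19.6% and 48.3%. H3K27me3 and H3K9me3 were thus less frequent at the P32-alone regions than in each of the 4 P67 sets, while for H3K4me3 Tutored replicate 2 was lower. The sets differ in length and in the depth of the library that defined them, and the part of either was not tested. Among chromosome classes, H3K4me3 of any library overlapped 10.4% of the P32-alone regions on large autosomes, 8.00% on the Z, 12.97% on middle and 12.9% on small chromosomes.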

How the data were processed

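The deposited islands were called with SICER 1.1 after alignment with BWA 0.6.1, per the submitters' processing notes, which also name MACS. No source used here names the genome build. Window (200 bp), gap (200 bp for H3K4me3, 600 bp otherwise) and false discovery rate (1e-05) are those in the deposited files' own tags. The files give a read count per island, as deposited by the authors; a p-value, a q-value and a ratio to input deposited by the authors in the replicate 2 lists were not used. Reads outside islands are not in these counts, so an uncalled library has no value. In a merged region, a library with a narrower island lacks its reads beside that island.

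Islands were merged over 5 libraries with Python 3.11.15 (pandas 2.3.3, numpy 2.4.6) and overlap meant at least 1 bp. For the read counts of each mark, it was the overlap of the merged mark region with the Pol II region. Groups came from the labels. Members, region lists and tests were chosen with earlier results of these data known. Reads in merged regions called in all 5 libraries were tested with edgeR 4.0.16 (TMM, robust quasi-likelihood, R 4.3.3), P32 against the mean of Tutored and Isolate, with Benjamini-Hochberg adjusted p under 0.05 over all regions of a mark. The script was tested on simulated counts with a fixed spread. Unlike the data, these had no shared deviation of same-numbered libraries, so they do not show how the test performs on the data. DESeq2 1.42.0, other scalings, filters, merging rules and leaving out each library were alternatives. CPM is over the reads of a library in the regions tested, scaled by TMM. Island read totals ran from 1551076 to 11303863 per library, and precision is limited by counts and by 1 P32 library per mark. Named regions were the 5 longest, the 5 with most reads, the 5 densest of at least 1 kb, the extremes of distance, the top regions by Pol II reads in each mark class and the 3 smallest p per mark.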

Additional observations from a re-analysis of the deposited data

Results flagged for a closer look

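In 1 of 15 groups of 4 P67 libraries, 1 library stood far from the others: at the H3K9me3 region chr9:50601-94400, Isolate replicate 1 had 1048 CPM, against 889 and 903 CPM in Tutored replicates 1 and 2 and 896 CPM in Isolate replicate 2. P32 had 790 CPM there, below all 4. Chance flags about 1 in 20 such groups.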

How the results depend on the processing

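The number of P32-alone Pol II regions was 1450 when they had to lie at least 5000 bp from a P67 island, and 1882 to 2923 under the other alternatives; with the same number of Pol II islands (8589) taken from each library it was 2595, of which 1240 were among the 2272. H3K4me3 was at fewer of the regions in P32 than in the P67 mean under all 11 alternatives, by -4.46 to -2.93 percentage points, against -4.01. For H3K27me3 the difference, 0.187, became 0.433 where islands had to cover 50% of a merged region, 0.790 with equal numbers of Pol II islands, 0.440 with equal numbers of mark islands and -0.0517 at 5000 bp or more from P67; it was also 0.0133 for regions with at least 50 P32 reads, 0.363 where the mark had to cover 50% of the Pol II region and 0.103 without Isolate replicate 2. For H3K9me3 the difference, 0.737, became 1.38, 2.31 and 0.397 where islands had to cover 50% of a merged region, with equal numbers of Pol II islands and at 5000 bp or more from P67, and 0.451 where the mark had to cover 50% of the Pol II region. Calls at H3K4me3 regions there, 0 in the main test, numbered 61 with DESeq2, 52 to 56 with 1 P67 library left out, and 111 (7 higher, 104 lower) with the replicate block, in which replicate number is a covariate and P32 has no number. The block called 6 H3K27me3 regions and 1 H3K9me3 region, DESeq2 2 H3K27me3 regions, and testing H3K9me3 regions called in at least 2 libraries gave 2. Same-numbered P67 libraries deviated together (r = 0.804 for H3K4me3, 0.599 for H3K27me3, 0.435 for H3K9me3, across regions), but no label says what the number marks. The block took P32 to lie midway between replicate 1 and replicate 2, which was not tested. Over all regions, calls of H3K4me3 numbered 0 in the main test, 1114 with DESeq2, 7561 with the block and 697 to 1180 with 1 library left out. For H3K27me3 they numbered 0 in the main test, 295 with DESeq2, 1283 with the block and 328 for regions in at least 2 libraries. For H3K9me3 they numbered 5 in the main test, 107 with RLE scaling, 554 with DESeq2, 116 with a mean of at least 50 reads, 2058 for regions in at least 2 libraries, 1442 with the block and 0 to 490 with 1 library left out. The count of 106 H3K4me3 regions below the P67 range, chosen after seeing the data, was 106 to 111 of 129 under the alternatives that kept these regions. With regions called in at least 2 libraries it was 134 of 201, so the share was 66.7%, against 82.2%. Exchanging the groups of the H3K4me3 replicate 1 libraries, added after seeing the data since their deposited names carry the other group's letter, called 0; it cannot change the count below the P67 range. The cause of each difference was not tested.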
